A study of Mus musculus with 12 samples.

Results

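Spleen regulatory T cells (Tregs) of Tbet flox mice were compared with those of control mice on 6 Illumina mouse expression arrays, 3 for each genotype, out of 12 arrays in the whole series. The arrays were chosen by their titles and by the genotype and tissue labels. The control mice carried Foxp3Cre, named FoxP3-YFP-Cre in the study design. The Tbet flox mice carried a floxed Tbx21 gene together with the same Cre. Both groups were C57BL/6 mice kept on a high fat diet, so neither group stands for normally fed mice or for mice without Cre. The other 6 arrays held Tregs from perigonadal adipose tissue (PGWAT) of the same 2 genotypes. Cre follows the Foxp3 promoter in this cross, so the deletion was aimed at Foxp3-expressing cells. The age of the mice and the number of mice behind each array were not given in the labels used here.

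Tregs are CD4 T cells that restrain immune responses and depend on the transcription factor Foxp3. T-bet, the product of Tbx21, is the transcription factor that directs type 1 T cell responses, in which cells make interferon gamma and carry the chemokine receptor CXCR3. A share of Tregs also uses T-bet, and CXCR3 then guides those cells to sites of type 1 inflammation. The comparison asks what the floxed Tbx21 allele changed in Tregs of a lymphoid organ.

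Between 14280 and 17090 of 45281 probes were detected on each spleen array at a detection p-value under 0.01, and the median raw signal lay between 98.5 and 115. Levels below are log2 intensities after background correction and quantile normalization of the 6 spleen arrays. The correlation of arrays across features was 0.973 to 0.981 among controls, 0.982 to 0.988 among Tbet flox arrays and 0.959 to 0.979 between genotypes. The median SD of a feature was 0.21 in control and 0.16 in Tbet flox. A feature is the brightest kept probe of a gene or an unnamed probe, and 13352 features were tested, of which 9525 were named genes. The number of arrays limits the precision, and since the labels do not name separate animals, the p-values cover only the spread of these arrays, which may be technical. The 6 arrays shared a chip with the controls on its first positions, so genotype and position cannot be told apart.

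All 8 Treg markers were measured above background and none passed the test between genotypes. Foxp3 measured 9.03, 8.53 and 8.72 in control and 8.53, 8.96 and 8.55 in Tbet flox by its brightest probe. The groups overlapped, and the difference was -0.08 (exact two-sided permutation p = 0.6). Of 2 other kept Foxp3 probes, 1 had a difference of 0.09 (exact permutation p = 0.9) and the other of -0.54 (exact permutation p = 0.1, the smallest p that 3 arrays against 3 allow). Ikzf2, which encodes the Treg transcription factor Helios, differed by 0.05, and Cd3e, a chain of the T cell receptor complex, by -0.13. The summed level of the 8 markers on the linear scale ran from 7163 to 7852 in control and from 7259 to 8148 in Tbet flox.

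The targeted gene did not separate the groups. Tbx21 measured 4.96, 6.27 and 5.15 in control and 5.14, 5.18 and 4.84 in Tbet flox by its only probe. Control 2 stood above all other arrays, and the remaining control values lay among the Tbet flox values. The difference was -0.41 (exact two-sided permutation p = 0.5). Its signal was low, detected at p under 0.05 on 3 of 3 control and 2 of 3 Tbet flox arrays. The files do not place the probe relative to the loxP sites, so it serves as no check of the deletion or of the labels.

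Few genes passed the test between the genotypes. With the threshold at a limma adjusted p under 0.05, 11 of 13352 features were called (0.0824%), 4 higher (0.03%) and 7 lower (0.0524%) in Tbet flox. The named genes that fell were Cxcr3 and Ifng of the type 1 response, the heat shock genes Hspa1a and Hspa1b, Sema6d and Sntb2. Slfn9, Ccdc50 and Cyp4f16 rose. At an unadjusted limma p under 0.05 there were 2587 features (19.4%), 1238 higher (9.27%) and 1349 lower (10.1%). The values of the groups did not overlap for 3310 features (24.8%), 12.4% of all features in each direction. The median difference over all features was -0.01.

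**Figure D1:**
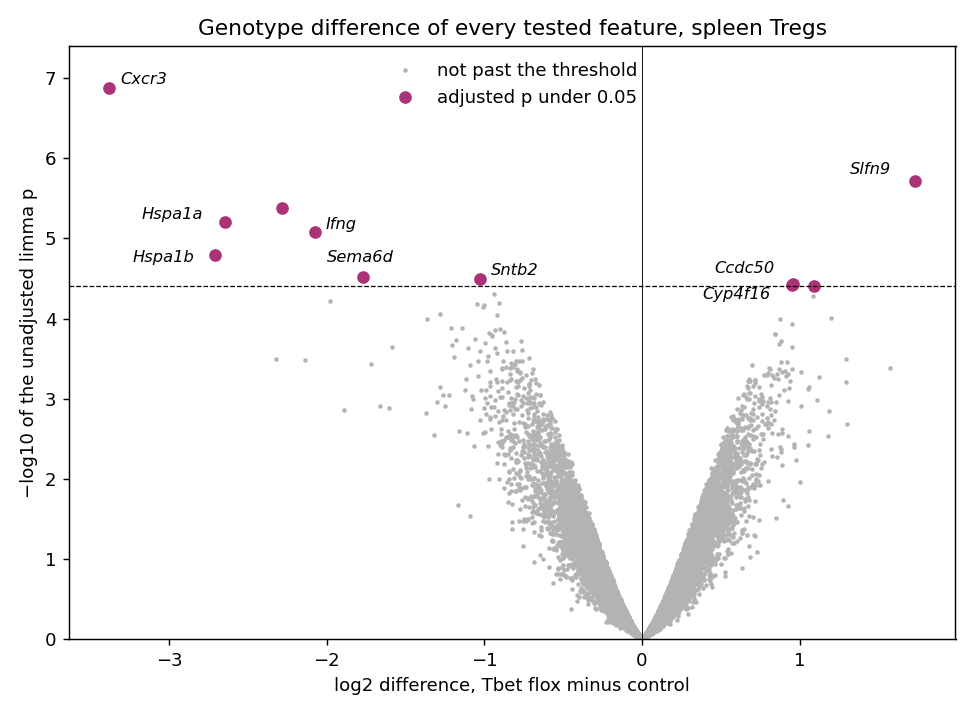
Each point is 1 of 13352 features, with the log2 difference (Tbet flox minus control) on the x axis and the −log10 of the unadjusted limma p on the y axis. The 11 called features are purple and lie above the dashed line, which marks the largest unadjusted p that was called. Cxcr3 lies furthest left at -3.38 and Slfn9 furthest right at 1.73.

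Within the type 1 genes, Cxcr3 and Ifng fell in Tbet flox. Cxcr3 encodes the receptor for the interferon-induced chemokines CXCL9, CXCL10 and CXCL11. Cxcr3 measured 8.08, 8.67 and 7.80 in control and 5.22, 4.41 and 4.79 in Tbet flox. Every control array lay well above every Tbet flox array, and the probe was above background on 3 of 3 control arrays but on 1 of 3 Tbet flox arrays. It passed the detection filter only through the control arrays, where it was high. Its part in the counts of the lists below therefore says nothing of those lists. Cxcr3 fell by 3.38 ± 0.26 log2 units (SE), a measured 10.4-fold lower level (limma adjusted p = 0.00178, n = 3 and 3). That size depended on how background was treated, since the call was kept but the level was 3.44-fold lower on the deposited processed values, 3.54-fold without background correction and 5.22-fold with an offset of 50.

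Ifng encodes interferon gamma, the hallmark cytokine of type 1 T cells. Ifng measured 7.28, 7.99 and 7.29 in control and 5.76, 4.99 and 5.57 in Tbet flox. The groups did not overlap, and all 6 arrays detected the probe. Ifng fell by 2.08 ± 0.25 log2 units (SE), or 4.22-fold (limma adjusted p = 0.0225). The call was kept but the size was 2.12-fold on the deposited processed values, 2.14-fold without background correction and 2.80-fold with an offset of 50. Its other kept probe had a difference of -1.86, with a limma adjusted p of 0.0526 over all probes.

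The sequence before the start of Cxcr3 and of Ifng is shown because T-bet is known to bind at both genes. The 250 bases on the gene's strand end 1 base before the annotated start (RefSeq, GRCm38.p6). Capitals mark matches on either strand to GTGTGA, the core that T-box factors recognise.
Cxcr3 (chrX:101734148-101734397, minus strand): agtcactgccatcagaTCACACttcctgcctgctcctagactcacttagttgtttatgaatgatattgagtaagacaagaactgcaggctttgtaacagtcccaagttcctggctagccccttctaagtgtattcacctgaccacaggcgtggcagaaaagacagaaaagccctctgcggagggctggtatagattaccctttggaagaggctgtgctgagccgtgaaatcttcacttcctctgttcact
Ifng (chr10:118440796-118441045, plus strand): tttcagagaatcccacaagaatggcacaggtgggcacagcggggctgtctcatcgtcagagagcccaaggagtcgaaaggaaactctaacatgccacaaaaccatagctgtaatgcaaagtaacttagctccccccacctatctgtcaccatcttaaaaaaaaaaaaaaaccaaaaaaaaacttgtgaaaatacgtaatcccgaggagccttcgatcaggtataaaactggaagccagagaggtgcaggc
The window of Cxcr3 held 1 match on the opposite strand, beginning 234 bases before the start, and that of Ifng held none. Of 32851 promoter windows of this length, 12.3% held the core. The longer form AGGTGTGA, which contains the core, was in neither window and in 1.12% of all windows. The motifs were chosen after the values were seen, and a match is a run of letters, not a measured binding site.

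Of 22 type 1 genes listed, 14 were measured and tested, 2 fell, none rose and 12 did not pass. The median difference of the 14 was -0.42, against -0.01 over all features, and 10 measured lower. Groups did not overlap for 7 of the 14, against 24.8% of all features, with 6 lower and 1 higher. The closest to the threshold was Il18r1, a chain of the receptor for interleukin 18, with 10.45, 10.96 and 10.39 in control and 9.75, 9.63 and 9.94 in Tbet flox. Its groups did not overlap, and its difference was -0.83 (limma adjusted p = 0.0716). Nkg7, a protein of cytotoxic granules, measured 6.73, 7.99 and 6.16 in control and 5.38, 5.13 and 5.37 in Tbet flox. That difference was -1.66 (limma adjusted p = 0.0733), again with no overlap. The chemokine gene Ccl5 measured 9.43, 10.005 and 9.49 in control and 9.05, 8.51 and 8.73 in Tbet flox, a difference of -0.88 (limma adjusted p = 0.0754) with no overlap. Havcr2, which encodes the inhibitory receptor TIM-3, was the 1 member that measured higher with no overlap, by 0.43 (limma adjusted p = 0.219). Il18r1 passed in 6 of 20 alternatives, Ccl5 in 5 and Nkg7 in 3. Stat4, which carries the interleukin 12 signal, differed by -0.29, and the cytokine gene Tnf by 0.09.

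A single control array held the highest type 1 values. Control 2 had the highest control level of 12 of the 14 type 1 genes, whereas it had the highest control level of 34.1% of all features. Without control 2, which was singled out after the values were seen, the median difference of the 14 genes was -0.12 and 8 of them measured lower. On the same normalized values the difference of Ccl4, another chemokine gene, turned from -0.45 to 0.30 and that of Tbx21 from -0.41 to -0.00237. Refitted without that array, Cxcr3 stayed called at -3.15 (limma adjusted p = 0.00365) and Ifng at -1.85 (limma adjusted p = 0.0479).

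Other lymphocytes also carry these type 1 genes, and in bulk samples fewer cells of a type and less RNA per cell cannot be told apart. Of 11 markers of CD8 T cells and NK cells, 5 were tested, none was called and their groups overlapped. Their summed linear level ran from 4287 to 5302 in control and from 4545 to 6037 in Tbet flox. Prf1 alone made up 92.2% to 95.0% of that sum, which says little of the other markers, and without it the sum ran from 266 to 363 in control and from 310 to 354 in Tbet flox. Prf1, which encodes perforin, measured 11.96 to 12.30 in control and 12.04 to 12.49 in Tbet flox, while Cd8a differed by 0.10 and Cd8b1 by 0.05. Of the NK cell markers, Klrb1c, which encodes NK1.1, was above background on 3 of 3 control and 3 of 3 Tbet flox arrays and differed by 0.19. Klrd1 was above background on 2 of 3 and 3 of 3 and differed by -0.05, while Ncr1, Eomes, Gzmk and Klra1 were not above background. The part of CD8 T cells and NK cells in the type 1 results was not tested.

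**Figure D2:**
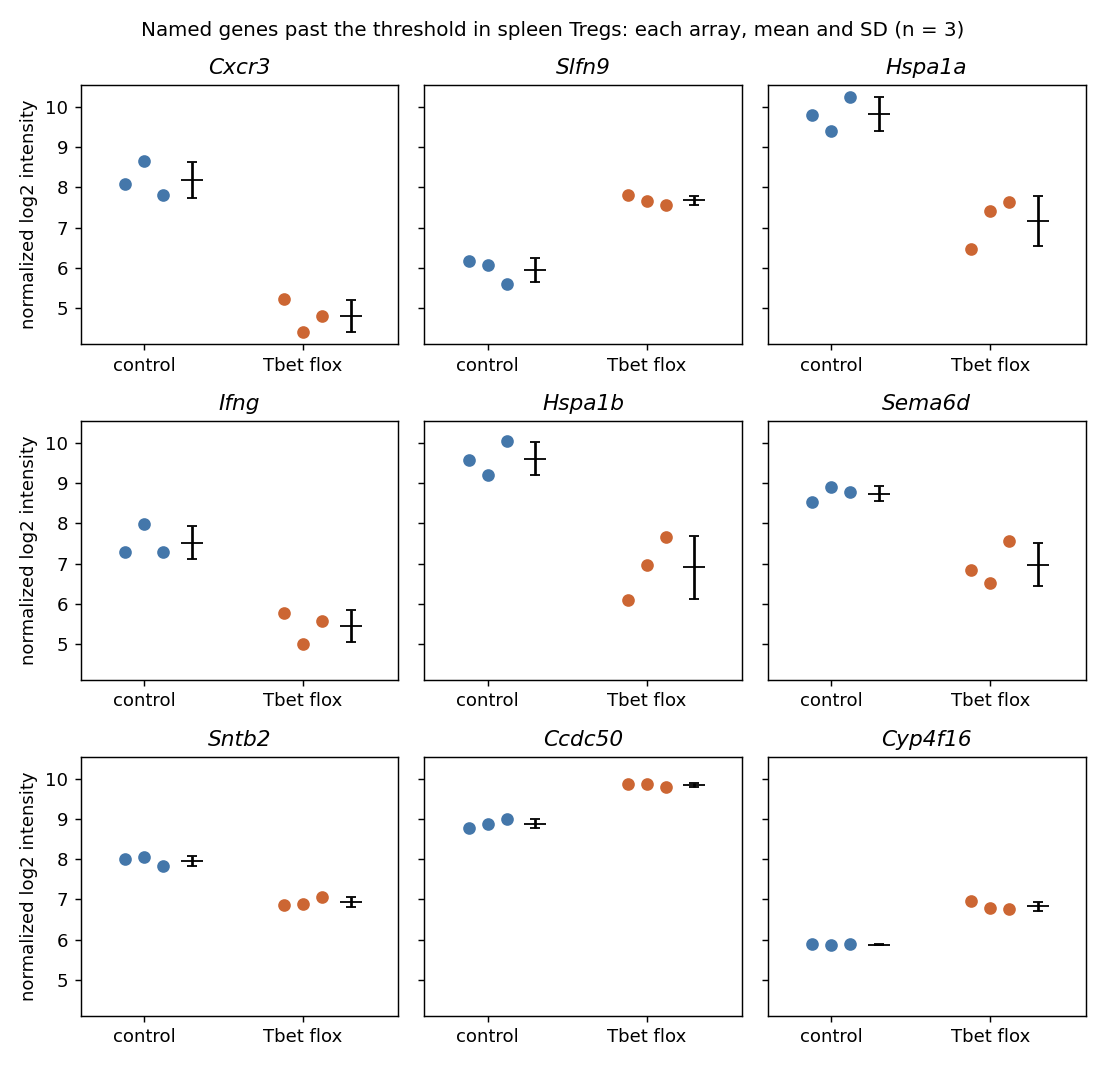
Normalized log2 intensity (y axis) of the 9 named genes past the threshold on each spleen array, by genotype (x axis). Points are arrays, and the dash with bars beside them is the mean ± SD of 3. For all 9 genes the values of control and Tbet flox do not overlap, and the gap is widest for Cxcr3. The genes were picked on these same arrays, so the lack of overlap adds no support.

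Cxcr3 was alone among the chemokine receptors in passing the test. Of 16 listed, 10 were tested, 1 fell and 9 did not pass, with a median difference of 0.19. The 1 that fell was Cxcr3, which passed the filter only through the control arrays. Ccr2, which brings cells to inflamed tissue, measured 4.98, 5.18 and 4.68 in control and 6.03, 5.30 and 5.48 in Tbet flox. Its groups did not overlap, but the difference of 0.66 did not pass (limma adjusted p = 0.144). Ccr7, which directs T cells to lymph nodes, differed by -0.45 (limma adjusted p = 0.167) with no overlap. Cxcr6, which like Cxcr3 marks type 1 cells, differed by 0.39 (limma adjusted p = 0.432) and its groups overlapped.

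Both inducible HSP70 genes fell in Tbet flox. They encode the chaperone that cells make under heat or protein stress. Hspa1a measured 9.80, 9.41 and 10.26 in control and 6.47, 7.42 and 7.64 in Tbet flox. The groups lay far apart, although the Tbet flox arrays spread over more than 1 log2 unit. Hspa1a fell by 2.65 ± 0.31 log2 units (SE), or 6.26-fold (limma adjusted p = 0.0212). Hspa1b measured 9.58, 9.21 and 10.04 in control and 6.10, 6.96 and 7.65 in Tbet flox. It held the same order of arrays as Hspa1a and did not overlap between groups. Hspa1b fell by 2.71 ± 0.35 log2 units (SE), or 6.53-fold (limma adjusted p = 0.0356). The sizes were smaller where background was treated otherwise, at 4.34-fold for Hspa1a and 4.23-fold for Hspa1b without background correction, with both still called. A second kept probe of Hspa1a differed by -2.59 and that of Hspa1b by -1.77 (limma adjusted p = 0.00576 and 0.00425 over all probes). The remaining kept probe of Hspa1a was above background on 3 of 3 control and 0 of 3 Tbet flox arrays, so it gave only a bound. It read at least 3.57-fold lower in Tbet flox, the control mean of 6.74 against 4.90, the mean of the lowest detected signal of each Tbet flox array.

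Hspa1a and Hspa1b are near-identical neighbours, so a probe named for 1 of them may read both, and they are not independent evidence. The windows before their starts are shown because the genes moved together (RefSeq, GRCm38.p6). Capitals mark GAANNTTC, the inverted pair of units that heat shock factors recognise, which reads the same on both strands.
Hspa1a (chr17:34972157-34972406, minus strand): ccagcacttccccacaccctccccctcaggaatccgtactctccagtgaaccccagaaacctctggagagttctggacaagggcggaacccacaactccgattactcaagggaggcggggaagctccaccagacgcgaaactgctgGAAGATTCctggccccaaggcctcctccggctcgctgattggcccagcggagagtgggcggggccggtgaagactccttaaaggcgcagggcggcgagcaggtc
Hspa1b (chr17:34959239-34959488, minus strand): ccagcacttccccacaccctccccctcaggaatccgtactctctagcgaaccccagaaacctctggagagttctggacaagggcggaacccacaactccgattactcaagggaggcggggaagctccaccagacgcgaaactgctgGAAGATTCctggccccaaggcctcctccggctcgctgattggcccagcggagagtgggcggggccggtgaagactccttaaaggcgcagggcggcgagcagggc
Of the 250 bases, 247 were equal at the same position and 3 differed. Each window held 1 match, beginning 104 bases before the start, and 6.69% of 32851 windows held such a match.

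No other chaperone passed the test. Of 20 heat shock chaperones and co-chaperones listed, 18 were tested, 2 fell, none rose and 16 did not pass, with a median of -0.11. At an unadjusted limma p under 0.05, 6 measured lower and 2 higher, against 10.1% and 9.27% of all features. Hspb1, a small heat shock protein gene, measured 5.54, 5.62 and 5.89 in control and 4.90, 5.02 and 5.06 in Tbet flox. That difference of -0.69 did not pass (limma adjusted p = 0.0715), although the groups did not overlap. Dnajb1, a co-chaperone of HSP70 that is also heat-inducible, differed by -0.43 (limma adjusted p = 0.163). The cytosolic Hspa4 and the mitochondrial Hspa9 differed by 0.63 and 0.61 (limma adjusted p = 0.0733 and 0.0822), both with no overlap and higher in Tbet flox, and they passed in 6 and 5 of 20 alternatives. Hspa8, the constitutive HSP70 gene, differed by -0.03.

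Immediate early genes, which cells switch on within minutes of stimulation or handling, measured mostly lower on the same Tbet flox arrays. Of 23 listed, 22 were tested and none was called (the smallest limma adjusted p was 0.0859), with 15 lower, 7 higher and a median of -0.28. At an unadjusted limma p under 0.05, 7 measured lower and none higher, against 10.1% and 9.27% of all features. Fos measured 10.56, 9.80 and 10.16 in control and 9.33, 9.57 and 9.73 in Tbet flox, a difference of -0.63 (limma adjusted p = 0.145) with no overlap. Nr4a2, an orphan nuclear receptor gene that T cell receptor signals induce, differed by -0.66 (limma adjusted p = 0.0859), and Ier2 by -0.64 (limma adjusted p = 0.0998). Egr1 differed by -0.40 and Fosb by -0.68, whereas Egr2, which T cell receptor signals also induce, differed by 0.30 and Dusp1 by -0.13. Among the Tbet flox arrays, Tbet flox 1 was lowest for Fos, Fosb, Egr1, Nr4a2 and Dusp1, but not for Ier2 and Egr2. The part of handling in the fall of Hspa1a and Hspa1b was not tested.

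Slfn9 rose in Tbet flox and was the largest called rise. It belongs to the Schlafen family, whose members are interferon-responsive and act in growth control of T cells in mice. Slfn9 measured 6.17, 6.06 and 5.60 in control and 7.80, 7.66 and 7.57 in Tbet flox. The Tbet flox arrays were close together and all above the controls. Slfn9 rose by 1.73 ± 0.18 log2 units (SE), or 3.32-fold (limma adjusted p = 0.0128). It stayed called at 2.01-fold without background correction, 2.02-fold on the deposited processed values and 2.49-fold with an offset of 50. A second kept probe measured 1.05 higher, with a limma adjusted p of 0.0411 over all probes. Schlafen genes lie in a cluster of related copies, so its probes may read related transcripts. Of 9 Schlafen genes listed, 4 were tested, 1 rose and 3 did not pass. Slfn1 differed by -0.42 (limma adjusted p = 0.172) with no overlap, in the opposite direction, and Slfn2 and Slfn5 differed by 0.38 and 0.16.

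The window before Slfn9 is shown for its match to the core of the interferon-stimulated response element, searched on both strands and marked in capitals (RefSeq, GRCm38.p6).
Slfn9 (chr11:82991831-82992080, minus strand): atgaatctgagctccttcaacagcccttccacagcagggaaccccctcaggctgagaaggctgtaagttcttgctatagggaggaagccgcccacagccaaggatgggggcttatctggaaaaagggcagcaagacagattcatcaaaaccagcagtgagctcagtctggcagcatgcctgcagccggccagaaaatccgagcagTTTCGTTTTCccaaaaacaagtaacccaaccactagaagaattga
The core is 2 GAAA units set 2 bases apart. The match was on the opposite strand, beginning 45 bases before the start, and 2.98% of 32851 windows held such a match. Since the window is shown for this match, the match adds no support. None of the other windows shown held this element. The windows of Slfn9, Hspa1a and Hspa1b held no T-box core, and those of Cxcr3, Ifng and Slfn9 held no heat shock element. No interferon-induced gene passed beside Slfn9. Of 23 listed, 19 were tested and none was called (smallest limma adjusted p 0.0998), with 9 higher, 10 lower and a median of -0.13. The guanylate-binding protein gene Gbp3 measured 8.72, 8.72 and 8.65 in control and 9.60, 9.36 and 9.03 in Tbet flox. Those groups did not overlap, and the difference of 0.63 did not pass (limma adjusted p = 0.0998). The other kept Gbp3 probe differed by 0.82 (limma adjusted p = 0.0613 over all probes), and Gbp3 passed in 3 of 20 alternatives. Oasl2, an interferon-induced relative of the antiviral sensor enzymes, differed by -0.75 (limma adjusted p = 0.1), also with no overlap. Its other kept probe differed by -0.04. Irf1, a transcription factor gene that interferon gamma induces, differed by -0.26, and Isg15 by 0.14.

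The remaining called features had no list of their own. Sema6d, which encodes a membrane-bound semaphorin, measured 8.54, 8.90 and 8.77 in control and 6.84, 6.50 and 7.55 in Tbet flox and fell by 1.77 ± 0.24 log2 units (SE; limma adjusted p = 0.0477). Its other kept probe differed by 0.15 (limma adjusted p = 0.659 over all probes), so the 2 probes of this gene disagreed, and with the mean of its probes Sema6d differed by -0.81 and was no longer called. Sntb2, a syntrophin that links membrane proteins to the dystrophin complex, measured 8.01, 8.05 and 7.82 in control and 6.86, 6.88 and 7.06 in Tbet flox. It fell by 1.03 ± 0.14 (limma adjusted p = 0.0477), and its other probe differed by -0.69. Ccdc50, which encodes a ubiquitin-binding protein of receptor signalling, measured 8.79, 8.87 and 8.998 in control and 9.86, 9.88 and 9.79 in Tbet flox. It rose by 0.96 ± 0.14 (limma adjusted p = 0.0477), and its other probe differed by 0.46. Cyp4f16, a gene of a cytochrome family that oxidises fatty acids and eicosanoids, measured 5.89, 5.86 and 5.88 in control and 6.96, 6.77 and 6.76 in Tbet flox. It rose by 0.95 ± 0.14 (limma adjusted p = 0.0477), and its other probe differed by 0.67. For these 4 genes, and for both unnamed probes that were called, the control and Tbet flox values did not overlap, as for 24.8% of all features. They were picked by their p on these same arrays, so the lack of overlap adds no support.

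The unnamed probe ILMN_1245146 measured 7.001, 8.07 and 7.72 in control and 5.48, 5.40 and 5.06 in Tbet flox and fell by 2.28 ± 0.25 (limma adjusted p = 0.0187). The unnamed probe ILMN_2756678 measured 5.08, 4.67 and 4.85 in control and 5.84, 5.95 and 6.07 in Tbet flox and was higher by 1.09 ± 0.16 (limma adjusted p = 0.0477). It was above background on 1 of 3 control and 3 of 3 Tbet flox arrays, so the size of its rise is uncertain, and it ran from 0.34 to 1.19 over the alternatives. The probe passed the detection filter only through Tbet flox, where it was high, so its part in the count of called features says little. For ILMN_1245146 the fall was 4.87-fold as reported and 2.29-fold on the deposited processed values. ILMN_2756678 was the last feature inside the threshold. The first outside was Czib, with a difference of -0.94 (limma adjusted p = 0.0525).

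Just outside the threshold, 116 features, 82 of them named genes, had a limma adjusted p of 0.05 to 0.0657, and Csf1r and Top2a, described with their lists, were among them. Of these, the naming rule took 7 genes that measured higher, by 0.70 to 1.57, and 4 that measured lower, by -0.9999 to -0.90, to fill 10 in each direction. Nrn1, which encodes neuritin, a protein known from anergic T cells and Tregs, measured 7.41, 7.64 and 6.98 in control and 8.65, 8.66 and 8.31 in Tbet flox. The difference was 1.20 (limma adjusted p = 0.0585). Dipk1c differed by 1.57, the ribosome biogenesis gene Nip7 by 0.81 and the mitochondrial ribosome gene Mrpl12 by 0.70, each with a limma adjusted p of 0.0657. Gm2888, 2610042L04Rik and Zfp24 were the other genes that measured higher. Other kept probes of Nip7 differed by 0.07 and 0.69 and that of Zfp24 by 0.06, so the probes of these genes disagreed. Lower were Crbn, the cereblon substrate receptor of a ubiquitin ligase (-0.92), the exocyst subunit Exoc8 (-0.90) and the lysosomal membrane protein gene Cln3 (-0.9999). The probes of Crbn disagreed, since its 4 other kept probes differed by -0.95, -0.55, -0.19 and 0.000907.

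No gene of Treg identity or suppression passed as processed here, although most measured higher in Tbet flox. Of 21 Treg core genes listed, 18 were tested, 0 were called (4 at an unadjusted limma p under 0.05, all higher, against 9.27% of all features), and 15 measured higher with a median of 0.23. Groups did not overlap for 6, all higher, against 12.4% of all features in that direction. Cd83, an activation marker found on Tregs, measured 8.36, 7.99 and 8.06 in control and 8.85, 9.05 and 8.62 in Tbet flox, a difference of 0.70 (limma adjusted p = 0.0821). Tnfrsf18, which encodes the costimulatory receptor GITR, measured 8.54, 8.83 and 8.47 in control and 9.54, 9.20 and 9.10 in Tbet flox, a difference of 0.67 (limma adjusted p = 0.0929). Neither gene overlapped between groups. Ctla4, a brake on costimulation, differed by 0.43 and Tnfrsf9, or 4-1BB, by 0.48 (limma adjusted p = 0.18 and 0.182). Among the Tbet flox arrays, Tbet flox 1 was highest for Tnfrsf18, Ctla4 and Tnfrsf9, but not for Cd83. The lack of calls depended on the processing, since Cd83 passed in 4 of 20 alternatives, Tnfrsf18 in 3, and Ctla4 and Tnfrsf9 in 0.

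Effector Treg genes gave no call either. Of 14 listed, 10 were tested and 0 called (3 at an unadjusted limma p under 0.05, all higher, against 9.27% of all features), with a median of 0.28. Batf, a transcription factor of effector and tissue Tregs, measured 9.74, 9.62 and 9.67 in control and 10.41, 10.27 and 10.13 in Tbet flox. The groups did not overlap and the difference was 0.59 (limma adjusted p = 0.0821). Il10, the suppressive cytokine interleukin 10, measured 5.68, 6.21 and 5.78 in control and 7.80, 6.93 and 6.46 in Tbet flox. Tbet flox 1 stood highest, the groups did not overlap, and the difference of 1.18 ± 0.30 did not pass (limma adjusted p = 0.0932). The same array was the highest Tbet flox array for Batf, Prdm1, Irf4, Ebi3, Icos and Rora, but not for Maf, Tgfb1 and Ahr. How far it carries the shift of this list was not tested. Prdm1, which encodes Blimp-1, differed by 0.52, and Irf4 by less than 0.01. Batf passed in 4 of 20 alternatives and Il10 in 2.

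Checkpoint and suppressor receptors gave 13 tested genes of 14 listed and 0 calls (4 at an unadjusted limma p under 0.05, all higher, against 9.27% of all features), with a median of 0.19. Tigit, an inhibitory receptor, measured 8.77, 9.34 and 8.71 in control and 9.997, 9.53 and 9.46 in Tbet flox, a difference of 0.73 (limma adjusted p = 0.115) with no overlap. Cd200, a ligand that restrains myeloid cells, differed by 0.44 (limma adjusted p = 0.154). Fgl2, a secreted suppressor of Tregs, measured 6.39, 7.04 and 6.89 in control and 8.54, 7.58 and 6.98 in Tbet flox. Those groups overlapped, and the difference of 0.93 did not pass (limma adjusted p = 0.184). Pdcd1, or PD-1, differed by 0.19. Among the Tbet flox arrays, Tbet flox 1 was highest for Tigit, Havcr2, Cd200, Fgl2, Pdcd1, Cd274, Pdcd1lg2, Lgals1 and Lgals3. It was not highest for Btla, Cd160, Cd5 and Tnfaip8l2. How far that array carries the shift of these receptors was not tested. Tigit passed in 1 of 20 alternatives, and Cd200 and Fgl2 in 0.

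Programmes of other helper lineages were not called either. Of 10 type 2 genes listed, 6 were tested and 0 called. The 1 with an unadjusted limma p under 0.05 was Il4, detected on 0 of 3 control and 3 of 3 Tbet flox arrays, which passed the filter only through Tbet flox, so that count says nothing of the list. The other 5 had a median of -0.02, with 0 at an unadjusted limma p under 0.05, and Gata3, the factor that directs type 2 cells, differed by -0.02. The cytokine gene Il4 measured 5.13, 5.19 and 5.08 in Tbet flox, near the detection limit (limma adjusted p = 0.101). Its Tbet flox level was at least 1.13-fold that of control, taking the lowest detected signal of each control array as the bound. Of 6 type 17 and follicular genes tested of 14 listed, 0 were called (2 at an unadjusted limma p under 0.05, against 19.4% of all features), and all 6 measured higher with a median of 0.24. Il21, a cytokine of follicular helper cells, measured 4.64, 4.45 and 5.30 in control and 5.56, 5.32 and 5.77 in Tbet flox, a difference of 0.75 (limma adjusted p = 0.118). It was detected on 1 of 3 control arrays and 3 of 3 Tbet flox arrays. Like Il4, it passed the filter only through Tbet flox, so its part in these counts says nothing of the list. Rora, which encodes a nuclear receptor and was the other gene at an unadjusted limma p under 0.05, differed by 0.33 (limma adjusted p = 0.248).

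Genes of resting and recirculating T cells measured mostly lower. Of 13 listed, 11 were tested and 0 called (3 at an unadjusted limma p under 0.05, all lower, against 10.1% of all features), with 9 lower and a median of -0.34. Klf2, the factor that keeps T cells in circulation, measured 8.54, 8.13 and 8.25 in control and 6.75, 7.66 and 7.94 in Tbet flox. Tbet flox 1 was lowest, and the difference of -0.86 did not pass (limma adjusted p = 0.144). Tbet flox 1 was also the lowest Tbet flox array for Ccr7, Lef1, Bach2, Satb1, Foxp1, Foxo1, Dapl1 and Igfbp4, but not for S1pr1 and Il7r. How far that array carries the shift of this list was not tested. Igfbp4, a marker of naive T cells, differed by -0.82 (limma adjusted p = 0.1), and its other probe by 0.09, so its probes disagreed. S1pr1, the receptor for leaving lymphoid organs and a target of Klf2, differed by -0.34.

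Cell cycle genes measured mostly higher, with 15 tested of 20 listed, 0 called (3 at an unadjusted limma p under 0.05, all higher, against 9.27% of all features), 12 higher and a median of 0.24. Top2a, the topoisomerase of dividing cells, measured 5.16, 4.62 and 5.39 in control and 6.89, 6.00 and 6.16 in Tbet flox. Its groups did not overlap and the difference was 1.29 (limma adjusted p = 0.0657), which passed in 4 of 20 alternatives. Tyms, which makes thymidylate for DNA, differed by 0.72 (limma adjusted p = 0.0935), while 3 other Tyms probes differed by 0.03, 0.42 and 0.39. Pcna and Cdk1 differed by -0.06 and -0.18. Among the Tbet flox arrays, Tbet flox 1 was highest for Top2a, Tyms, Ccna2, Birc5, Aurka, Aurkb, Mcm3, Mcm6, Mcm7 and Rrm2. It was not highest for Mcm2, Mcm4, Mcm5, Pcna and Cdk1. How far that array carries the shift of the cell cycle list was not tested. Of 14 genes of the T cell receptor complex and its kinases tested, 0 were called (1 at an unadjusted limma p under 0.05, against 19.4% of all features). Their range was -0.36 (Cd6) to 0.25 (Cd3g). Of 11 fatty acid and cholesterol genes tested, 0 were called (0 at an unadjusted limma p under 0.05, against 19.4% of all features). Their range was -0.35 to 0.52, with Pparg, a factor of adipose Tregs, at the upper end. Pparg measured 4.70, 4.94 and 5.14 in control and 5.99, 4.96 and 5.38 in Tbet flox. Its groups overlapped (limma adjusted p = 0.278). Detected on 1 of 3 control and 3 of 3 Tbet flox arrays, it passed the filter only through Tbet flox, so its place says nothing of the list.

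**Figure D3:**
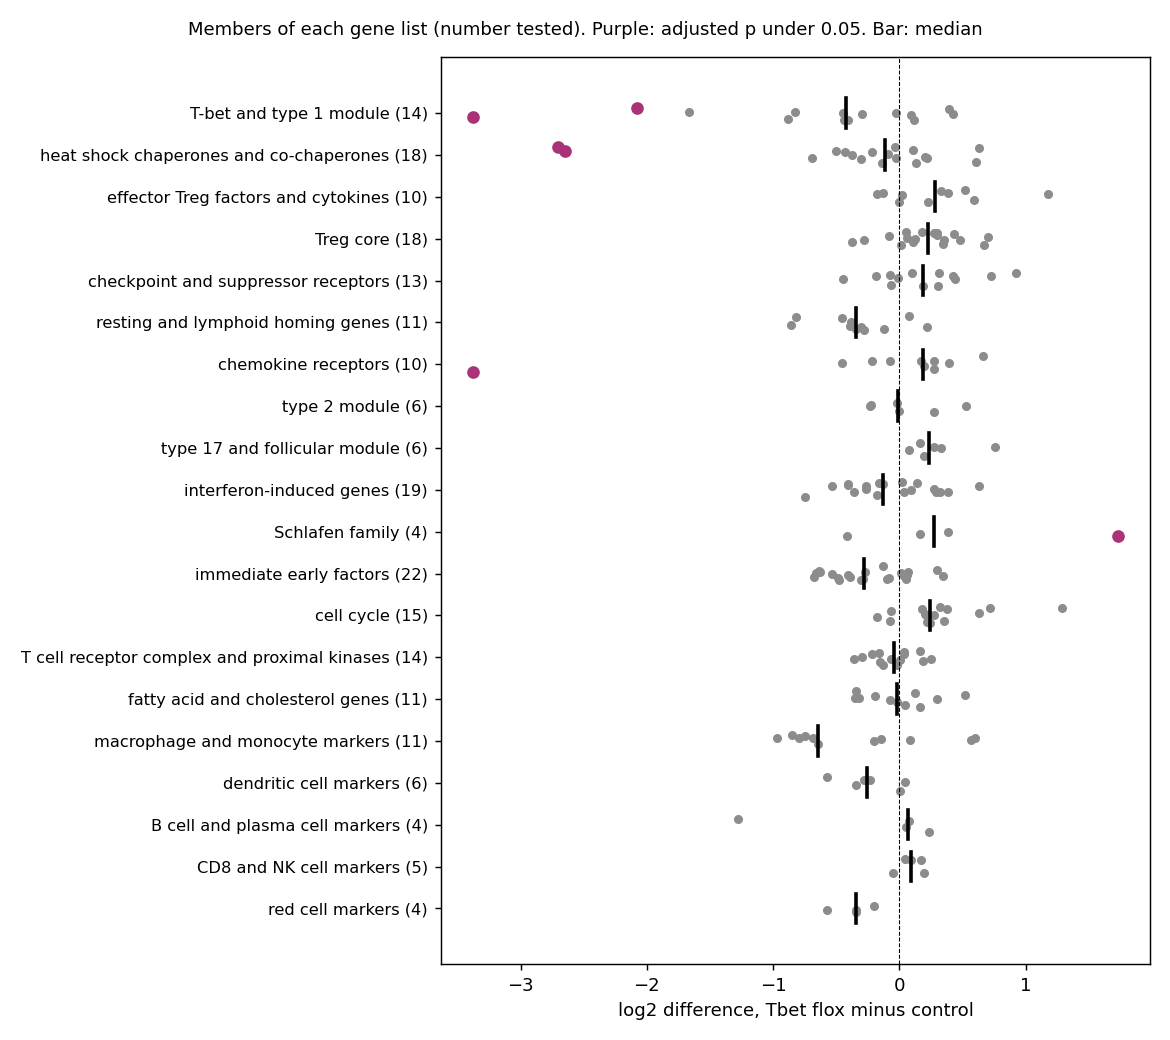
Log2 difference (Tbet flox minus control, x axis) of each tested member of the gene and marker lists with at least 4 tested members (y axis, with the number tested). Purple points have a limma adjusted p under 0.05, and the bar is the median of the list. The purple points are Cxcr3, drawn in 2 lists, Ifng, Hspa1a and Hspa1b to the left and Slfn9 to the right.

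Markers of macrophages and monocytes measured lower beside these results. Of 15 listed, 11 were tested and 0 called (6 at an unadjusted limma p under 0.05, all lower, against 10.1% of all features), with 8 lower, 3 higher and a median of -0.64. Groups did not overlap for 4, all lower, against 12.4% of all features in that direction. Csf1r, the receptor that macrophages need to survive, measured 6.35, 6.21 and 6.02 in control and 5.32, 4.98 and 5.38 in Tbet flox, a difference of -0.97 (limma adjusted p = 0.0646) with no overlap. Csf1r passed in 6 of 20 alternatives and C1qa in 1, so the absence of calls depended on the processing. C1qa, a complement gene of tissue macrophages, differed by -0.69 (limma adjusted p = 0.0716) and Adgre1, a surface marker of mature macrophages, by -0.85 (limma adjusted p = 0.126). The lysozyme genes Lyz1 and Lyz2 went the other way, by 0.60 and 0.57. The summed linear level of the list ran from 1163 to 1769 in control and from 1200 to 1642 in Tbet flox, and Cd14 and Fcgr1 were not above background. In Tbet flox, Lyz1 and Lyz2 were the brightest of the list, with means of 8.81 and 8.61 against 7.46 for Adgre1. The sum therefore leans on the lysozyme genes and says little of the markers that measured lower. The part of such cells in the results above was not tested.

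Markers of other cells gave no call in spleen. Dendritic cell markers (6 of 11 tested, 4 lower and 2 higher, median -0.26) summed to 3780 to 4747 in control and 3337 to 4674 in Tbet flox. Xcr1, Clec9a and Cd209a were not above background. Siglech was the brightest, with means of 11.29 in control and 11.33 in Tbet flox, against 9.23 and 8.65 for H2-Aa. The sum therefore leans on Siglech and says little of the other markers. H2-Aa differed by -0.58 (limma adjusted p = 0.176), and its groups overlapped. B cell and plasma cell markers (4 of 13 tested) summed to 403 to 536 and 445 to 502, and Ms4a1, Pax5, Cr2 and Mzb1 were not above background. Jchain, the joining chain of secreted antibody, measured 5.54, 6.18 and 6.79 in control and 4.95, 4.81 and 4.90 in Tbet flox, a difference of -1.28 (limma adjusted p = 0.0673) with no overlap. Red cell markers (4 of 8 tested) all measured lower, with a median of -0.35 and overlapping groups. Their sum ran from 3005 to 3667 in control and from 2032 to 4078 in Tbet flox. Of the neutrophil, platelet and stromal lists, 1, 1 and 2 markers were tested and differed by -0.21 to 0.18.

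The genotype difference was set beside that in PGWAT Tregs by an interaction term in limma over all 12 arrays, normalized together, with a weight for each tissue. It called 11 of 15308 features (0.0719%), and 0 of them were among the 11 called in spleen. Of the features it called, only Mterf1a, Mterf1b, Tnik and Mmrn1 had passed the detection filter of the spleen arrays. The others could not have been called there. For Cxcr3 the difference was -3.32 in spleen and -1.32 in PGWAT, where the control arrays measured 5.88, 7.55 and 7.96 and the Tbet flox arrays 7.77, 5.20 and 4.46. Those PGWAT groups overlapped, and the difference between tissues of -1.9998 ± 0.96 did not pass (limma adjusted p = 0.49). Ifng measured 9.48, 9.93 and 8.98 in PGWAT control and 6.78, 6.18 and 4.81 in PGWAT Tbet flox, and these groups, which differed by -3.54, did not overlap. The term for Ifng was 1.42 ± 0.77 (limma adjusted p = 0.554).

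For Hspa1a the difference was -2.72 in spleen and -3.18 in PGWAT, and for Hspa1b it was -2.79 and -1.53. Neither term passed (limma adjusted p = 0.94 and 0.741). Slfn9 measured 7.62, 5.77 and 4.48 in PGWAT control and 4.46, 6.57 and 5.08 in PGWAT Tbet flox. The PGWAT groups overlapped and their difference was -0.58, and the term of 2.41 ± 0.80 did not pass (limma adjusted p = 0.287). Ccdc50 differed by 0.98 in spleen and by -0.79 in PGWAT, and its term of 1.78 ± 0.46 did not pass either (limma adjusted p = 0.205). Each tissue lay on its own chip, so tissue and chip cannot be told apart. The fitted weights were 3.2 for spleen arrays and 0.312 for PGWAT arrays, so the precision of these terms was limited by the PGWAT arrays.

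**Figure D4:**
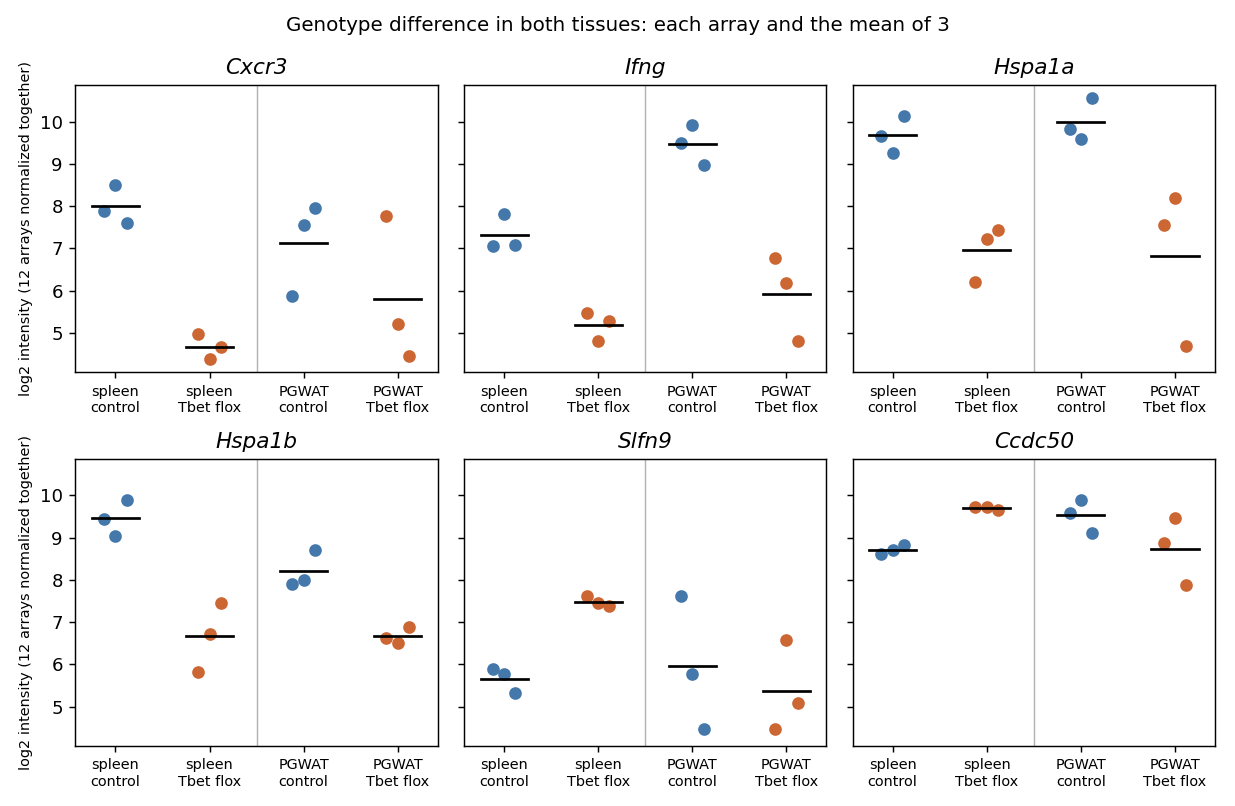
Log2 intensity (y axis, 12 arrays normalized together) of 6 genes called in spleen, on each array of both tissues and genotypes (x axis). Points are arrays and the line is the mean of 3. Cxcr3, Slfn9 and Ccdc50 are separated by genotype in spleen and overlap in PGWAT, while Ifng, Hspa1a and Hspa1b are lower on every Tbet flox array than on every control array of the same tissue.

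How firmly a gene was called depended on the processing. Cxcr3 kept its call in 18 of 20 alternatives, among them all 6 that leave out 1 array, with limma adjusted p of 0.00279 to 0.0108 in those 6. Slfn9 kept its call in 17 of 20 and lost it without Tbet flox 2 (limma adjusted p = 0.0707). Hspa1a kept it in 16 and lost it without control 1 (limma adjusted p = 0.0705) or without Tbet flox 2 (0.0707). Ifng and Hspa1b each kept it in 13. Ifng lost it without control 1 (limma adjusted p = 0.0573), Tbet flox 2 (0.0707) or Tbet flox 3 (0.0615), and Hspa1b without any 1 of the controls or Tbet flox 2 (0.0593 to 0.121). Sema6d and Ccdc50 kept it in 11 and Sntb2 and Cyp4f16 in 10. Of the unnamed probes, ILMN_1245146 kept it in 16 and ILMN_2756678 in 9. When 1 array was left out, Sema6d, Sntb2 and Ccdc50 kept their call in 1 of 6 cases each and Cyp4f16 in 0 of 6. In those cases ILMN_1245146 kept its call in 4 of 6 and ILMN_2756678 in 0 of 6. All 11 called features kept their direction in all 20 alternatives.

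**Figure D5:**
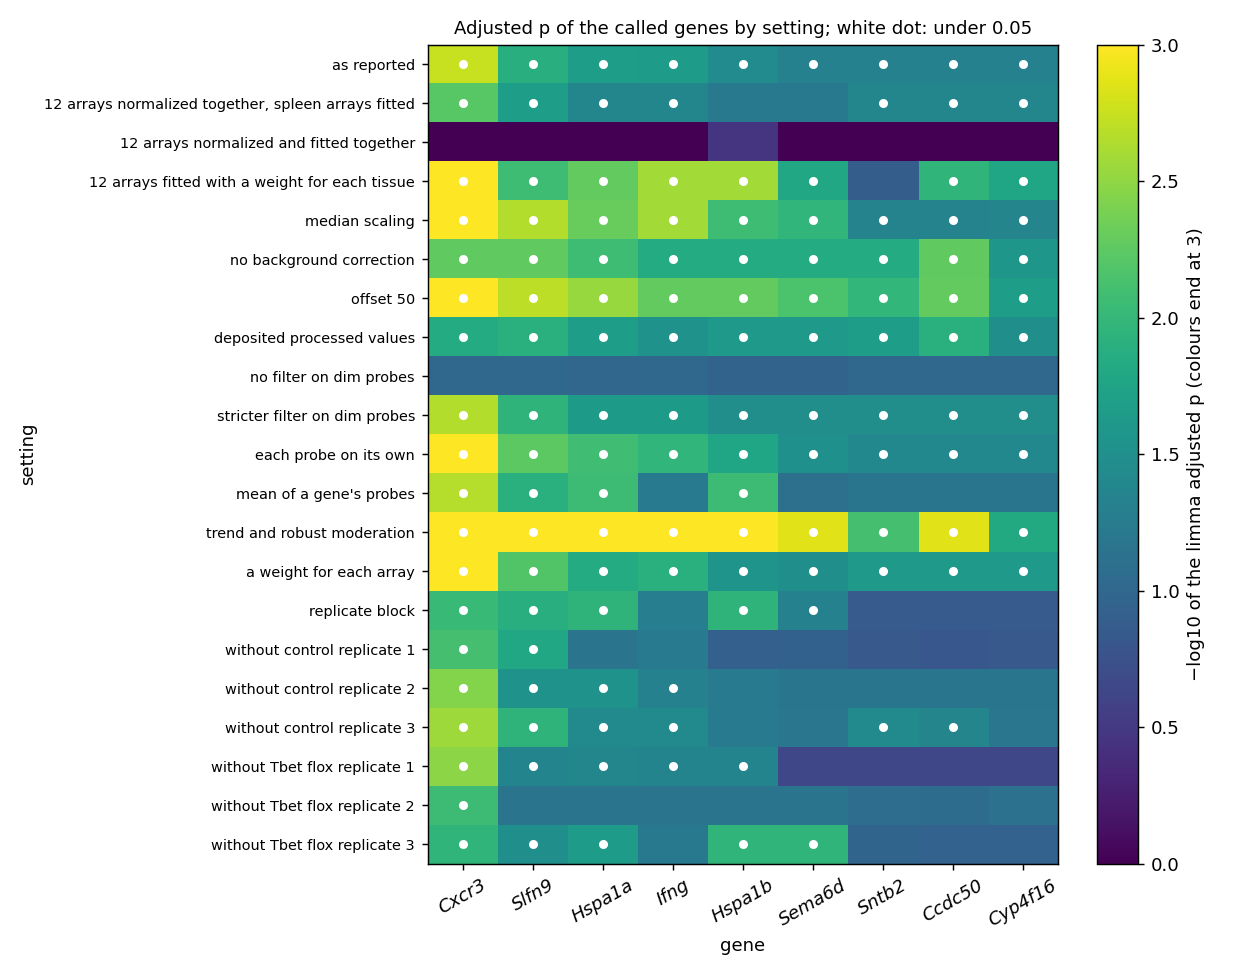
The −log10 of the limma adjusted p (colour) of each called gene (x axis) as reported and under each of 20 alternative settings (y axis). White dots mark an adjusted p under 0.05. The column of Cxcr3 has a dot in all settings but 2, and those on the right lose most dots where an array is left out.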

How the data were processed

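RNA of Tregs was amplified, labelled with biotin and hybridised to single-colour Illumina arrays, per the labels' protocols. The deposited table holds 1 bead intensity per probe and array, not normalized, per the file headers, with a detection p-value for each, also deposited by the authors, which ranks a probe's signal among the negative control probes. Both came from GenomeStudio per the submitters' processing notes, and its version is not given in the sources used here. A second deposited table of processed intensities was used for an alternative.

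The 6 spleen arrays were background corrected (normexp, offset 16, background estimated from the detection p-values), quantile normalized and set on a log2 scale with limma 3.58.1 in R 4.3.3, from the deposited intensities. Probes with a detection p under 0.05 on at least 3 of 6 arrays were kept (19788), and the brightest kept probe stood for its gene. GEO's platform annotation gave 1 gene symbol to 34885 of 45281 probes, several to 18 and none to 10378. Symbols of 34807 probes were matched by Entrez ID to the reference table, which changed 0. Genotypes were compared with lmFit and eBayes (two-sided, 4 residual degrees of freedom), with Benjamini-Hochberg adjustment over all 13352 features. Tbx21 and Foxp3 were compared by exact permutation. The interaction of genotype and tissue was fitted to all 12 arrays. The fits were tested on simulated data.

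Named are all called genes, filled to 10 in each direction by the smallest p, up to 4 called members of each list or otherwise 2, and Tbx21 and Foxp3. Other genes named were chosen after their values were seen. The comparison, the 15 gene lists and the marker lists were chosen with earlier results of these data known. The main fit used no pairing by replicate number. Same-numbered arrays deviated from their group means with correlations of -0.20, -0.19 and 0.03, and differently numbered ones with -0.06 to 0.22. Deviations from a mean of 3 arrays are not free of each other, so these values cannot decide whether the samples were paired. Alternatives changed the normalization, background, filter, choice of probe, moderation, weights, block and arrays included. An "at least" fold sets the bright group's mean against the lowest detected signal of each dim array, or the probe's own where that is higher. Promoter windows came from RefSeq (GRCm38.p6), matched by symbol.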

Additional observations from a re-analysis of the deposited data

Results flagged for a closer look

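The genotype effect differed between spleen and PGWAT for 11 features by the interaction term in limma over all 12 arrays, 3 with a higher and 8 with a lower value in spleen. None of these 11 was among the features called in spleen, where only Mterf1a, Mterf1b, Tnik and Mmrn1 had passed the detection filter and were tested. For the others the lack of a spleen call was fixed in advance. The spleen differences of the 11 features ran from -0.42 to 0.28 and their PGWAT differences from -3.31 to 4.27. The spleen values of the untested ones, Ccn1 among them, came from probes not detected on at least 3 of 6 spleen arrays. Mterf1a, a mitochondrial transcription factor gene that is near-identical to Mterf1b, differed by 0.07 in spleen and 3.88 in PGWAT (limma adjusted p = 0.0131), and Ccn1, a matrix protein gene, by 0.02 and -2.94 (limma adjusted p = 0.0403). Tnik, a kinase gene of Wnt signalling, differed by -0.42 and 2.70 (limma adjusted p = 0.0145).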

How the results depend on the processing

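The count of called features moved with nearly every choice. In place of 11, limma called 271 with all 12 arrays normalized and fitted together with a weight for each tissue (15308 features tested, so several choices changed at once), 31 with median scaling, 322 with no background correction, 346 with an offset of 50, 272 on the deposited processed values, 141 with a stricter filter, 30 with each probe on its own, 5 with the mean of a gene's probes, 451 with trend and robust moderation and 367 with a weight for each array. It called 0 with the 12 arrays fitted together (285 at an unadjusted p under 0.05, smallest adjusted p 0.356) and 0 with no filter on dim probes (3772 at an unadjusted p under 0.05, smallest adjusted p 0.0971). All 11 called features stayed called under median scaling, no background correction, the offset of 50, the deposited values, the stricter filter, each probe on its own, trend and robust moderation and array weights. Leaving out 1 array gave 1 (without Tbet flox 2) to 26 (without control 3) calls, and 5 without control 2 and 6 without control 1, Tbet flox 1 or Tbet flox 3. With the replicate block 10 features were called, 6 of them among the 11, and with 12 arrays normalized together but spleen fitted alone 10, 8 of them among the 11.

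For the effect between tissues, 18 features were called in place of 11 with no weights, 7 with median scaling, 1 with the replicate block, and 2 (without PGWAT control 3) to 61 (without PGWAT control 2) when 1 array was left out. Leaving out PGWAT Tbet flox 1 or 3 gave 5, PGWAT Tbet flox 2 gave 6, and spleen Tbet flox 2 or 3 gave 7. Over the same alternatives the term for Hspa1a ran from -0.62 (without PGWAT Tbet flox 3) to 1.15, that for Sema6d from -0.43 (without PGWAT Tbet flox 3) to 1.47, also turning without PGWAT control 3, and that for ILMN_2756678 from -0.0438 (without PGWAT Tbet flox 1) to 0.72. The Tbx21 difference ran from -0.65 to -0.00272 when 1 array was left out, and the Foxp3 difference from -0.23 to 0.0516, which it reached without control 1. The Insig1 difference turned to 0.0365 with the mean of its probes. Of 77 named genes, list members and called probes refitted in spleen, 75 kept their direction in all alternatives, and of the 11 terms between tissues 8 did. The causes of these moves were not tested. Probes near background, Tbx21 and Il4 among them, have limited precision.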
